A study of Mus musculus with 3 samples.

Results

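Cadherins and protocadherins are calcium-dependent adhesion proteins of the cell surface, and the genes described here are all those of the mouse count table whose symbol begins with Cdh and a digit or with Pcdh and that held at least 10 unique molecular identifiers (UMIs, tags that count each RNA molecule once) in the whole table. By that rule 93 of the 28001 features had a fitting name and 65 features, under 64 symbols, had enough UMIs. Pcdhga8 occurs as 2 features. The lowest members, Pcdhgb2 and Pcdha9, held 10 UMIs, and the highest features left out, Pcdhga10 and Pcdha5, held 9. The rule uses names and total UMIs alone, and it was set with earlier results of these data known. The 65 members comprised 4 type I cadherins (Cdh1, Cdh2, Cdh4 and Cdh15), 11 type II cadherins, 2 other cadherins (Cdh13 and Cdh26), 4 delta-1 protocadherins (Pcdh1, Pcdh7, Pcdh9 and Pcdh11x), 5 delta-2 protocadherins (Pcdh8, Pcdh10, Pcdh17, Pcdh18 and Pcdh19), 2 other single protocadherins (Pcdh15 and Pcdh20), and 3, 20 and 14 genes of the clustered Pcdha, Pcdhb and Pcdhg families. Pcdh9 held the most UMIs (4716), followed by Pcdh10 (4201), Pcdh17 (3776), Cdh2 (2967) and Pcdh7 (2611), so most of the signal lay in few genes.

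The cells came from the nucleus accumbens of Thy1::ChR2 mice, which carry the light-gated channel channelrhodopsin (ChR2) behind the Thy1 promoter, a promoter used to drive transgenes in many types of projection neuron. The tissue was cut as a 400 um coronal section after labelling with FLiCRE, a reporter system that records the coincidence of light and raised calcium, during light stimulation of ChR2 in the accumbens. All 3 samples belonged to this 1 group, so the mouse line, the labelling and the stimulation were the same for every sample. Single cells may differ in the transgene they express and the label they carry, and classes were not split by this. The sources used here give neither age nor sex. Without an unstimulated group, the question the data could answer was how the family differed between cell classes of the same libraries.

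The deposited table pools the 3 libraries and marks each cell's library by the number at the end of its barcode. These numbers, used here as library 1, 2 and 3, are names and were not tied to a labelled replicate. Cells under 300 genes or over 20% mitochondrial UMIs were dropped, which left 2350, 6079 and 1862 cells, 10291 in all, with medians of 992.5, 2123 and 2705 UMIs per cell, so library 1 was the shallowest. The members took 1039, 1236 and 1340 CPM (UMIs scaled to a fixed total per library or class) of the kept cells. Between pairs of libraries 13, 7 and 22 cell barcodes were shared. Nothing states whether the libraries came from separate animals, so the p-values below measure only the spread between 3 libraries, which may be technical.

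Cells were assigned to classes by lists of marker genes that hold no cadherin or protocadherin, so no member was counted in assigning a cell. The thresholds of the gates were, however, chosen after class sizes and some member levels, Pcdh8 among them, had been seen, so the p-values below are not from gates set blind. A class name stands for cells that resemble that type by these markers. The spiny projection neurons, the main output neurons of the accumbens, included 1671 D1-like cells (dopamine receptor D1 type), 1255 D2-like cells and 1011 cells without a subtype. Set beside them were 261 cells of a type marked by Tshz1, Otof and Casz1, called Tshz1-type below. Their gate required neuron markers but not a spiny call, so some may be other neurons. There were further 311 glutamatergic neurons, 72 interneurons, 931 astrocytes, 1346 oligodendrocytes, 101 oligodendrocyte precursors (OPCs), 328 microglia, 230 MHC-II macrophages, 89 T cells, 452 endothelial cells, 265 mural cells (pericytes and vascular smooth muscle) and 46 fibroblasts. Genes known for each type, most of them in the lists that made the assignment, were at these levels. Drd1 was at 712 ± 225 CPM (SD, n = 3 libraries, as in all means below) in D1-like cells and 10.7 ± 12.1 CPM in D2-like cells, and Adora2a at 8.61 ± 8.07 and 1041 ± 459 CPM. The Tshz1-type cells held Tshz1 at 941 ± 335 CPM and Drd1 at 549.5 ± 166 CPM, but also Penk, a gene of the D2 list, at 2109 ± 1345 CPM, and 82.4% of them met their gate with only the minimum of markers. The interneurons held Sst at 15485 ± 3099.5 CPM, Npy at 10208 ± 5002 CPM and Pvalb at 402 ± 241 CPM. The glutamatergic cells held Slc17a7 at 1709 ± 694 CPM and the cortical gene Tbr1 at 314 ± 101 CPM. The summed level of the 8 neuron markers ranged from 8906 to 15508 CPM over the libraries in the neuron classes, and from 0 to 1659 CPM in the others. How much of a low member level in a non-neuronal class is free RNA from neurons was not tested.

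Classical cadherins bind their own kind on the neighbouring cell, and their inner ends hold catenins, which link them to actin. Type I members such as Cdh2 (N-cadherin) adhere strongly, whereas type II members bind in groups of preferred partners and are known for patterned expression among neuron types. Cdh13 (T-cadherin) lacks the inner end and is tethered by a lipid anchor, and Cdh5 (VE-cadherin) forms the junctions between endothelial cells. The delta protocadherins act as single genes that set cell sorting and axon growth. The clustered protocadherins are chosen promoter by promoter in each neuron and serve self-recognition of its branches. Genes of the Pcdha and of the Pcdhg cluster share their last exons, where a 3′ kit reads, so that reads from them can fail to name 1 gene. The part of this in the low Pcdha and Pcdhg counts was not tested.

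Summed over all members, the family was at 1608 ± 175 CPM in D1-like, 1734 ± 245 in D2-like and 1819.8 ± 160.1 in Tshz1-type cells. It was at 1726 ± 425 CPM in glutamatergic neurons and 1448 ± 163 in interneurons, and OPCs, at 1866 ± 78.6 CPM, lay in the same range as neurons. Astrocytes (895 ± 67.9 CPM) and oligodendrocytes (904 ± 81.1 CPM) had about the same sum, followed by endothelial (669 ± 98.1 CPM) and mural cells (636 ± 90.4 CPM). Microglia (92.4 ± 60.5 CPM), MHC-II macrophages (88.6 ± 84.2 CPM) and T cells (46.5 ± 80.6 CPM) were lowest. CPM here counts molecules by their 3′ ends and is not divided by gene length, so levels of different genes are set side by side as shares of molecules only.

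**Figure D1:**
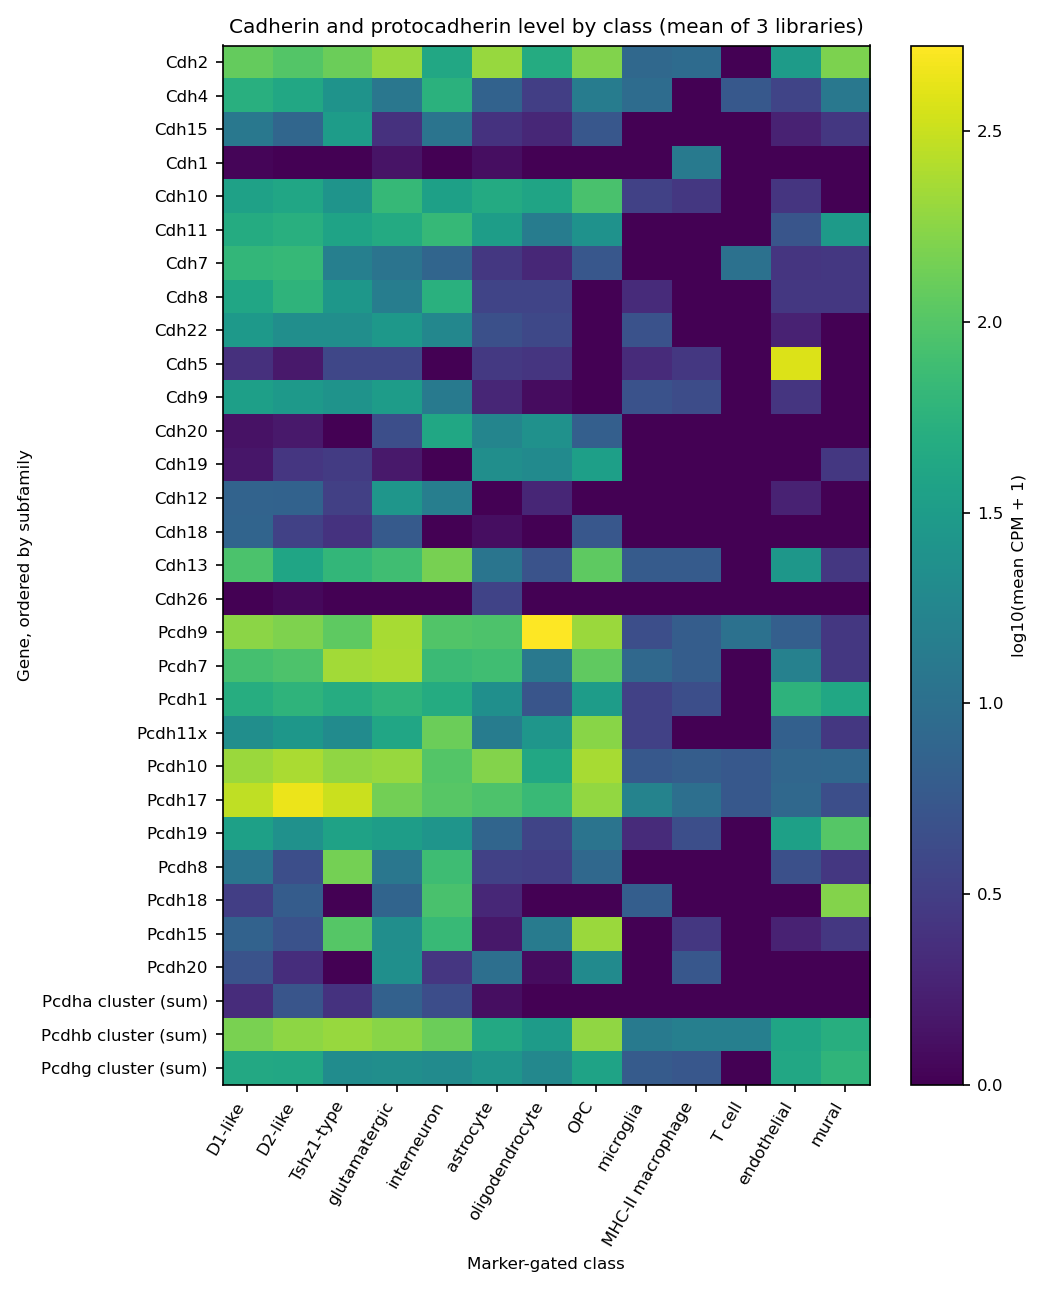
Level of each single cadherin and protocadherin, and of the summed Pcdha, Pcdhb and Pcdhg clusters (rows), in 13 marker-gated classes (columns), as log10 of the mean CPM over 3 libraries plus 1. Neuron columns are filled across many rows, while Cdh5 stands out in endothelial cells, Pcdh18 in mural cells and Pcdh9 in oligodendrocytes.

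The subfamilies were spread differently over the classes. The delta-2 protocadherins summed to 704 ± 182 CPM in D2-like and 542 ± 47.3 CPM in D1-like cells, against 116 ± 6.42 CPM in oligodendrocytes. The delta-1 protocadherins summed to 571 ± 66.2 CPM in glutamatergic neurons, 571 ± 75.98 CPM in oligodendrocytes and 331 ± 77.1 CPM in D1-like cells. Type II cadherins reached 392 ± 37.2 CPM in endothelial cells, nearly all of it Cdh5, and 276 ± 28.6 and 260.4 ± 19.4 CPM in D2-like and D1-like cells, where the sum was shared by Cdh7, Cdh8, Cdh10, Cdh11, Cdh9 and Cdh22. The Pcdhb cluster summed to 149 ± 15.2 CPM in D1-like, 173 ± 43.9 in glutamatergic and 185 ± 87.7 in OPC cells, and to 43.2 ± 1.10 CPM in astrocytes. The Pcdhg cluster was at 59.7 ± 30.2 CPM in mural, 42.4 ± 12.2 in endothelial and 42.6 ± 10.9 in D1-like cells, and the Pcdha cluster did not exceed 5.98 ± 2.27 CPM in any class, its level in glutamatergic neurons.

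By its mean over libraries, Pcdh17 was the highest member in D1-like (288 ± 107 CPM) and D2-like cells (435 ± 207 CPM). Pcdh10 was second in D1-like and D2-like cells (208 ± 57.4 and 237 ± 46.7 CPM), and Pcdh9 came next (178 ± 51.1 and 158 ± 62.5 CPM). In library 2 Pcdh10 stood above Pcdh17 in both types, and without library 1 it did so narrowly in the mean of D1-like cells (238 and 236 CPM). In Tshz1-type cells the means of Pcdh17 (322 ± 299 CPM), Pcdh7 (224 ± 71.8 CPM) and Pcdh10 (188 ± 99.6 CPM) were highest, but the place of Pcdh17 came from the 12 cells of library 1. Without that library Pcdh7 (262 CPM) and Pcdh10 (246 CPM) led and Pcdh17 was at 152 CPM, and by UMIs Pcdh7 (192) and Pcdh10 (176) were ahead of Pcdh17 (108). Glutamatergic neurons were led by Pcdh7 (239.7 ± 77.8 CPM), Pcdh9 (233 ± 97.4 CPM) and Pcdh10 (202 ± 117 CPM). Interneurons were led by Cdh13 (145 ± 24.7 CPM), Pcdh11x (129.6 ± 112 CPM) and Pcdh17 (104 ± 74.6 CPM), and the spreads of these neighbours overlapped in each of these neuron classes. Without library 2 or library 3 Pcdh9 led in glutamatergic neurons (268 and 253 CPM). In interneurons the order changed whichever library was left out, with Pcdh11x at 66.5 CPM without library 3 and Pcdh17 at 64.2 CPM without library 1.

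Outside neurons, oligodendrocytes were led by Pcdh9 at 529.7 ± 80.7 CPM, with Pcdh17 (69.1 ± 12.7 CPM) and Cdh2 (46.8 ± 16.3 CPM) far below. Astrocytes were led by Cdh2 (199 ± 30.6 CPM), Pcdh10 (166 ± 38.7 CPM) and Pcdh17 (91.96 ± 17.3 CPM). OPCs had Pcdh10 (232 ± 129 CPM), Pcdh9 (207 ± 114 CPM) and Pcdh15 (207 ± 68.6 CPM) at about the same level. Endothelial cells held Cdh5 (379 ± 23.8 CPM) above Pcdh1 (57.4 ± 11.2 CPM) and Pcdh19 (34.0 ± 2.34 CPM). In fibroblasts, with 2 usable libraries, Cdh5 was at 166 and 199 CPM on 14 UMIs, beside endothelial markers at 276 and 778 CPM in sum, whose part in it was not tested. Mural cells held Pcdh18 (163 ± 11.03 CPM), Cdh2 (151 ± 4.54 CPM) and Pcdh19 (102 ± 37.9 CPM). In microglia the leading member, Pcdh17, was at 15.5 ± 2.34 CPM, and Cdh4 (8.18 ± 4.74 CPM) followed on 3 UMIs, with Pcdh7 and Cdh2 equal behind it (7.36 ± 7.05 CPM, 5 UMIs each). In T cells no member passed 2 UMIs, the count of Cdh7 and of Pcdh9, and Cdh4 was among those with 1. MHC-II macrophages held 6 UMIs of Cdh1 (E-cadherin, the adhesion protein of epithelia and of some dendritic cells) at 10.01, 26.6 and 0 CPM in libraries 1, 2 and 3. No other class held more than 1 UMI of Cdh1. Pcdh17 (8.85 ± 15.3 CPM, all of it in library 2) and Cdh2 (7.98 ± 7.04 CPM) came next there.

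For each member the class of its highest mean was also recorded. Of the 65 members, 11 were highest in D2-like cells, 10 in interneurons, 9 in OPCs, 8 in mural cells, 7 in Tshz1-type cells, 6 in glutamatergic neurons, 5 each in D1-like and endothelial cells, 2 in astrocytes, and 1 each in oligodendrocytes and MHC-II macrophages. Many of these rested on few UMIs. The libraries of the highest class lay clear of those of every other class with 3 libraries for Cdh5 and Pcdh9, Pcdh18 and Pcdh19, Cdh26 (astrocytes, 2.58 ± 0.602 CPM on 7 UMIs) and Pcdha11 (glutamatergic neurons, 6 UMIs). The share of all genes that do so is not given here, so this list describes these members only.

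**Figure D2:**
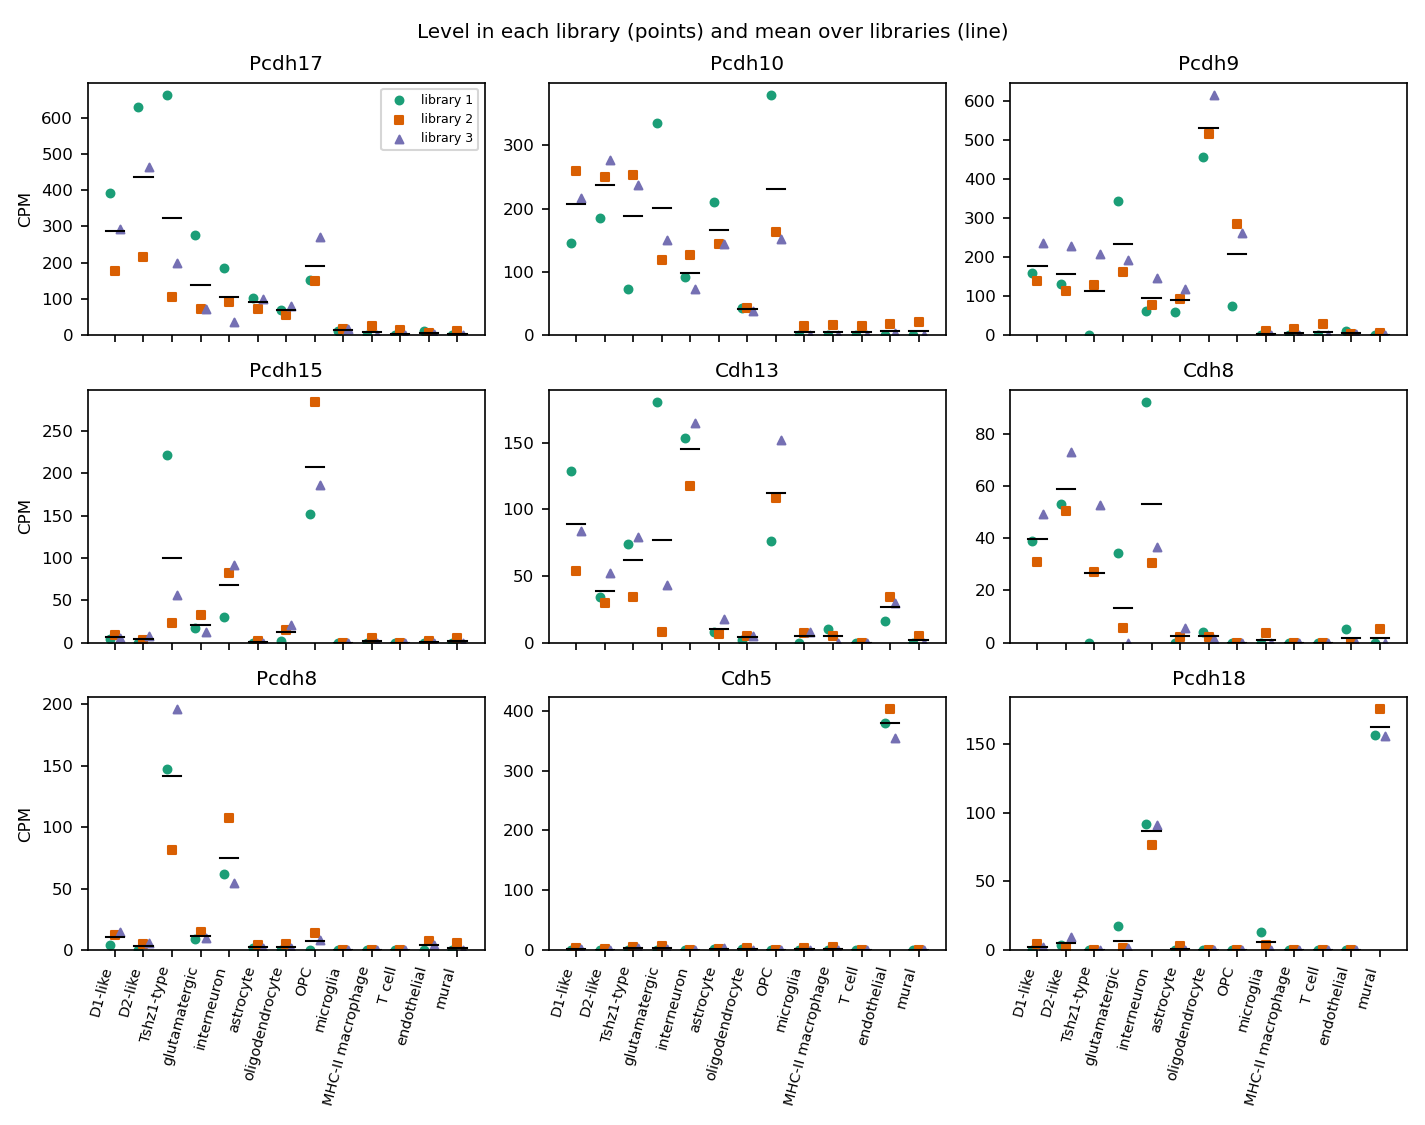
CPM of 9 members in each library (green circles, library 1; orange squares, library 2; purple triangles, library 3) and their mean (line) for 13 marker-gated classes. Of the classes drawn Cdh5 is high in endothelial cells alone (fibroblasts are not drawn), Pcdh18 in mural cells and interneurons, and Pcdh8 in Tshz1-type cells and interneurons, while Pcdh17 differs more than 2-fold between libraries 1 and 2 within D1-like cells.

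Because a cell's detected genes grow with its depth, cells were also thinned to 1000 UMIs each. At that depth D1-like cells held UMIs of 1.54 ± 0.0991 members per cell, D2-like cells of 1.60 ± 0.182, glutamatergic neurons of 1.55 ± 0.288 and interneurons of 1.54 ± 0.402. Astrocytes held 0.935 ± 0.149, oligodendrocytes 0.730 ± 0.0280, endothelial cells 0.586 ± 0.128, microglia 0.111 ± 0.0705 and MHC-II macrophages 0.0450 ± 0.0407. Each of the neuron classes with 3 libraries lay above each of these 5 classes in every library. OPCs (1.79) and Tshz1-type cells (1.72) gave values in 2 libraries only, as did mural cells (0.559). Without thinning the means were 3.16 in D1-like cells, 5.07 in glutamatergic neurons, 2.10 in astrocytes and 1.39 in oligodendrocytes. The number of shallower cells left out was 120 D1-like cells, 116 D2-like cells, 160 astrocytes and 325 oligodendrocytes.

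**Figure D3:**
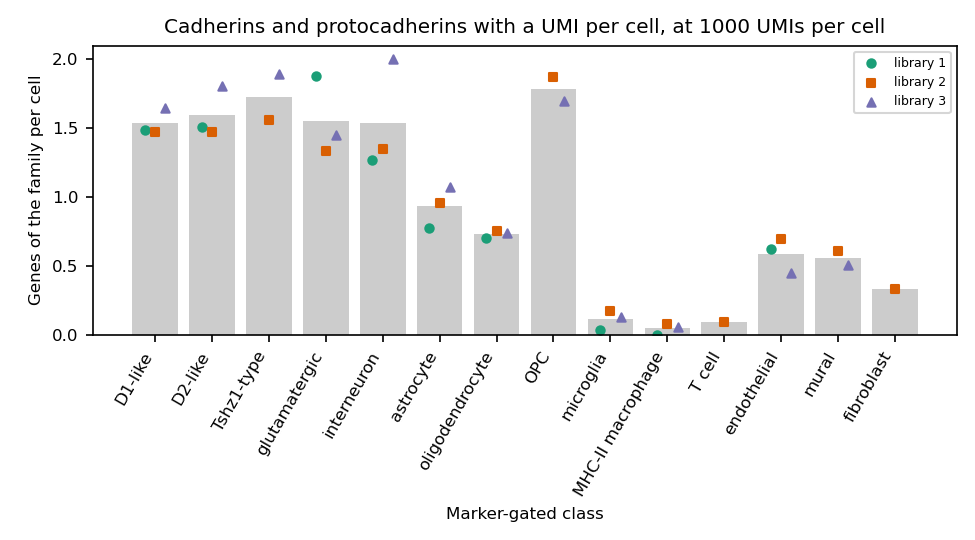
Mean number of cadherin and protocadherin genes with a UMI per cell after thinning each cell to 1000 UMIs (bar, mean over libraries; points, single libraries; T cells and fibroblasts have 1 library). Spiny, glutamatergic and interneuron classes lie between 1.27 and 2, astrocytes and oligodendrocytes between 0.699 and 1.07, and microglia and MHC-II macrophages below 0.2.

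Neurons were first set against all non-neuronal classes. Most members tested were higher in neurons: of 65 members 46 passed the filter on low counts, 30 were higher and 4 lower. These calls are from edgeR's quasi-likelihood test on UMIs summed per library and class, with the library as a block and Benjamini-Hochberg adjusted p under 0.05 over all genes, as in each comparison below. Of all 13104 genes tested, 67.3% were called, 31.6% higher and 35.7% lower. The median log2 fold change was 1.48 over the 46 members and -0.060 over all genes. A member that is high in 1 arm passes the filter through that arm. Such counts and medians, here and in each comparison below, describe the members that passed and not the family. By subfamily, 13 of 17 tested Pcdhb genes, 7 of 11 type II cadherins, 4 of 5 delta-2 protocadherins, 2 of 3 type I cadherins and 2 of 4 delta-1 protocadherins were higher in neurons. No Pcdhb gene was lower.

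Type II cadherins gave the largest differences. Cdh7 was at 41.0, 51.8 and 50.1 CPM in the neurons of libraries 1, 2 and 3 and at 0, 3.28 and 1.09 CPM in the other cells (log2 fold change 4.43 ± 0.44 (SE), adjusted p = 3.11e-05). Cdh9 was at 29.1, 26.1 and 28.2 CPM against 0.686, 1.51 and 0.723 CPM (log2 fold change 4.26 ± 0.35 (SE), adjusted p = 9.86e-06). Cdh8 was at 50.7, 32.1 and 43.3 CPM against 2.06, 2.02 and 2.17 CPM (log2 fold change 3.83 ± 0.28 (SE), adjusted p = 8.20e-06). For all 3 genes every neuron sum lay above every non-neuronal sum. The share of all genes whose sums do not overlap is not given, here or in any comparison below. Statements on overlap therefore describe the named genes only. Cdh12 (3.52), Cdh22 (2.98) and the type I gene Cdh4, R-cadherin (2.59), were higher on the same scale. Cdh18 was found with 52 UMIs in neurons and 2 in the other cells, a ratio of levels of 15.3 with a counting interval of 4.02 to 129 (95%, exact).

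Pcdh8, a delta-2 protocadherin known for its regulation by neuronal activity, was at 20.5, 24.6 and 40.8 CPM in neurons and 0.686, 4.29 and 1.81 CPM elsewhere (log2 fold change 3.10 ± 0.40 (SE), adjusted p = 0.000109). This p is no independent test of Pcdh8, since gate thresholds were chosen after its levels had been seen. Pcdh17 was at 451, 161 and 261 CPM in neurons and 63.8, 49.9 and 76.7 CPM elsewhere (log2 fold change 1.64 ± 0.22 (SE), adjusted p = 0.000140); library 1 was high and library 2 low in neurons, and no neuron sum overlapped the others. Of the clustered genes, Pcdhb17 (25.9, 25.9 and 21.8 against 3.43, 4.54 and 2.89 CPM; log2 fold change 2.33 ± 0.28 (SE), adjusted p = 7.42e-05) and Pcdhb20 (2.35), Pcdhb8 (2.36) and Pcdhb16 (2.29) led.

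The 4 members lower in neurons were Cdh5, Cdh19, Cdh20 and Pcdh9. Cdh5 was at 0, 2.62 and 1.28 CPM in neurons and 52.1, 46.1 and 35.8 CPM elsewhere (log2 fold change -4.91 ± 0.41 (SE), adjusted p = 1.73e-05). Cdh19, a type II cadherin known from glia and neural crest cells, was at 1.08, 1.01 and 0.642 and 9.60, 11.6 and 21.7 CPM (log2 fold change -4.23 ± 0.39 (SE), adjusted p = 1.20e-05). Cdh20 was at 3.24, 2.83 and 3.21 and 17.8, 10.6 and 13.7 CPM (log2 fold change -2.44 ± 0.32 (SE), adjusted p = 0.000123). The sums did not overlap for these 3 genes. The lower level of Cdh20 did not hold for every neuron class. Its mean was highest in interneurons (40.9 ± 46.9 CPM on 9 UMIs, none in library 3), above oligodendrocytes (22.9 ± 9.45 CPM). Pcdh9 was at 163, 133 and 209 CPM in neurons and 173, 221 and 327 CPM elsewhere (log2 fold change -0.94 ± 0.18 (SE), adjusted p = 0.00159), with overlapping sums and the same direction in 3 of 3 libraries. Its lower level in neurons did not hold against every non-neuronal class. Pcdh9 was highest in oligodendrocytes (529.7 ± 80.7 CPM). Endothelial (5.61 ± 4.45 CPM) and mural cells (1.77 ± 3.07 CPM) lay below D1-like (178 ± 51.1 CPM) and D2-like cells (158 ± 62.5 CPM). Of the 16 members named in these 3 paragraphs by the fixed rule, 16, 15 and 13 kept their call without library 1, 2 or 3; the others were too sparse to be tested there, except Pcdhb16, which missed the threshold without library 3 (adjusted p = 0.0739). Without 1 library the share of all genes called was 62.8% without library 1, 65.0% without library 2 and 52.6% without library 3. Fold changes use the TMM scaling and so differ from the ratio of the CPM values.

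The partner genes of the family were called about as often as all genes between neurons and other cells, 28 of 43 (65.1%), 15 higher and 13 lower over 4 lists, where 67.3% of all genes were called. Of 11 catenins and related armadillo proteins tested, 2 were higher in neurons and 3 lower. Ctnna2, the neural alpha-catenin, was higher (46.01 ± 2.46 against 21.6 ± 2.88 CPM; log2 fold change 0.67 ± 0.20 (SE), adjusted p = 0.0143) and Ctnna1, the alpha-catenin of most tissues, lower (52.4 ± 8.89 against 105 ± 12.9 CPM; log2 fold change -1.46 ± 0.18 (SE), adjusted p = 7.85e-05). Pkp2 (2.83) was higher, and Ctnnd1 (-1.30), or p120-catenin, and Ctnnal1 (-1.30) were lower. Of 9 junction linkers and nectins tested, none was higher and 6 were lower, among them the tight-junction scaffold Tjp1 (-2.29) and the nectin Pvrl2 (-2.26). Of 9 far relatives of the superfamily, 7 were higher, among them Clstn3 (4.19), Fat3 (4.19) and Celsr3 (3.78), and 2 were lower, Dchs1 (-1.10) and Fat1 (-0.89). Of 14 genes of protocadherin signalling and shedding, 6 were higher, led by the kinase Ptk2b (3.74) and by Cyfip2 (3.68) and Abi2 (2.51) of the WAVE actin complex, and 2 were lower, Cyfip1 (-1.67) and Psen2 (-1.35). Numbers in brackets are log2 fold changes by edgeR.

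Among spiny neurons, the D1-like and D2-like types differed in few members. Cdh13 was higher in D1-like cells, and Pcdh17, Cdh8 and Pcdhb7 were higher in D2-like cells: 1 and 3 of 22 members tested, where 3.17% of all 9010 genes were called (1.64% higher in D1-like, 1.53% lower). The median log2 fold change was -0.10 over these members and -0.00084 over all genes. Cdh13 was at 129, 53.7 and 83.6 CPM in D1-like cells of libraries 1, 2 and 3 and at 34.04, 30.1 and 52.2 CPM in D2-like cells (log2 fold change 0.88 ± 0.16 (SE), adjusted p = 0.000166). Every D1-like sum lay above every D2-like sum. Cdh8 was at 38.7, 30.9 and 49.2 CPM in D1-like and 52.9, 50.2 and 72.8 CPM in D2-like cells (log2 fold change -0.66 ± 0.16 (SE), adjusted p = 0.00827), again without overlap.

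Pcdh17 was at 391, 178 and 294 CPM in D1-like and 628, 216 and 463 CPM in D2-like cells. Library 2 was low and library 1 high in both types, so the types overlapped over libraries, while the D2-like value was the higher one within 3 of 3 libraries (log2 fold change -0.49 ± 0.08 (SE), adjusted p = 3.01e-05). Pcdhb7 was at 25.8, 16.3 and 12.3 CPM against 26.5, 24.7 and 39.8 CPM (log2 fold change -0.81 ± 0.24 (SE), adjusted p = 0.0414), with a gap of under 1 CPM in library 1. Without the library block edgeR called none of the 4 (3 members at an unadjusted p under 0.05; the fit allows for no shared library level), and DESeq2 called 1 member, Pcdh17, so the split of 1 higher and 3 lower became 0 and 1. Leaving out library 3 ended the calls of Pcdh17 (adjusted p = 0.115), Cdh8 (0.144) and Pcdhb7 (0.608), and leaving out library 2 those of Cdh8 (0.541) and Pcdhb7 (0.159). The share of all genes called in these and related fits was 0.821% by DESeq2, 0.34% without the library block, 1.37% with the stricter gate, 2.88% without library 1, 1.52% without library 2 and 1.21% without library 3.

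The 18 other members tested between D1-like and D2-like cells did not pass. Pcdh10 was at 146, 260.1 and 216 CPM in D1-like and 185, 250.01 and 276 CPM in D2-like cells (log2 fold change -0.11 ± 0.09 (SE), adjusted p = 0.774), and Cdh7 at 43.02, 71.1 and 72.5 and 56.7, 58.9 and 81.03 CPM (log2 fold change 0.10 ± 0.14 (SE), adjusted p = 0.902). Pcdh19, an X-linked gene, was at 17.2, 34.2 and 51.6 and 18.9, 23.9 and 26.1 CPM (log2 fold change 0.59 ± 0.20 (SE), adjusted p = 0.120). Cdh2 was at 103, 119.6 and 136 and 75.6, 100.1 and 119 CPM (log2 fold change 0.23 ± 0.11 (SE), adjusted p = 0.432), and Pcdh9 at 159, 139 and 236 and 132, 112 and 229 CPM (log2 fold change 0.19 ± 0.10 (SE), adjusted p = 0.496). The ranges of the types overlapped for these 5 genes. Of the partner genes in these lists the test called 2 of 32 (6.25%), 0 higher and 2 lower, where 3.17% of all genes were called: 0 of 9 catenins, 0 of 3 junction linkers and 0 of 7 far relatives passed, and 2 of 13 signalling genes were lower in D1-like cells: Ptk2b (402 ± 84.9 against 576 ± 113 CPM; log2 fold change -0.36 ± 0.09 (SE), adjusted p = 0.0254) and the phosphatase subunit Ppp1ca (449 ± 89.2 against 520.2 ± 84.6 CPM; log2 fold change -0.25 ± 0.07 (SE), adjusted p = 0.0330).

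**Figure D4:**
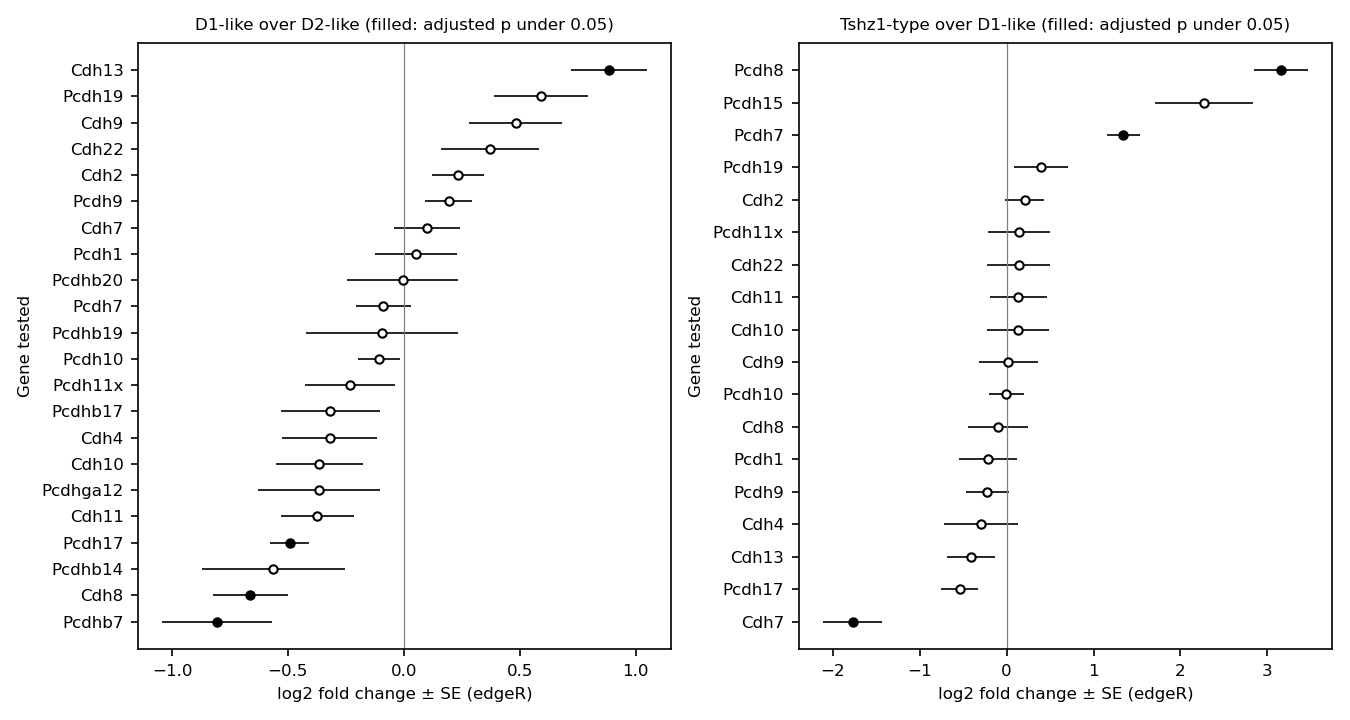
Log2 fold change with its SE (edgeR) of each member tested between D1-like and D2-like cells (left, 22 members) and between Tshz1-type and D1-like cells (right, 18 members). Filled points have an adjusted p under 0.05: Cdh13, Pcdh17, Cdh8 and Pcdhb7 on the left, Pcdh8, Pcdh7 and Cdh7 on the right, where the gate was set after Pcdh8 levels had been seen.

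The Tshz1-type cells, set against D1-like cells, held more Pcdh8 and Pcdh7 and less Cdh7. Of 18 members tested, 2 were higher and 1 lower, where 0.806% of all 6952 genes were called (0.604% higher, 0.201% lower), and the median log2 fold change was 0.076 over these members and -0.027 over all genes. Pcdh8 was at 147, 81.6 and 196 CPM in Tshz1-type and 4.30, 12.5 and 14.8 CPM in D1-like cells of libraries 1, 2 and 3 (log2 fold change 3.15 ± 0.31 (SE)). It is given as a description with no p, since the gate was set after Pcdh8 levels had been seen and 82.4% of the Tshz1-type cells met it with only the minimum of markers. Pcdh8 is counted among the 2 higher members here and among the calls below, and this count is no independent test of it. With the stricter gate, which leaves 2 libraries, its log2 fold change was 3.32 and it was not called. The lowest Tshz1-type value was more than 5 times the highest D1-like value, though library 1 held 2 UMIs of Pcdh8 in its 12 Tshz1-type cells. Pcdh7 was at 147, 290.01 and 234 CPM against 34.4, 105 and 107 CPM (log2 fold change 1.34 ± 0.19 (SE), adjusted p = 0.0134). Cdh7 was at 0, 22.7 and 18.8 CPM against 43.02, 71.1 and 72.5 CPM (log2 fold change -1.77 ± 0.34 (SE), adjusted p = 0.0416). None of the 3 overlapped.

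Pcdh15, a protocadherin known from the tip links of hair cells, was at 221, 22.7 and 56.5 CPM in Tshz1-type and 4.30, 9.22 and 4.92 CPM in D1-like cells, without overlap, and did not pass (log2 fold change 2.27 ± 0.56 (SE), adjusted p = 0.128); library 1 gave the highest value from 3 UMIs. Pcdh17, at 663, 104 and 199.7 against 391, 178 and 294 CPM (log2 fold change -0.54 ± 0.21 (SE), adjusted p = 0.512), and Cdh13, at 73.7, 33.99 and 79.1 against 129, 53.7 and 83.6 CPM (log2 fold change -0.41 ± 0.28 (SE), adjusted p = 0.826), overlapped. Without library 1, which has 12 Tshz1-type cells, the 3 calls, that of Pcdh8 as a description only, were kept (adjusted p = 2.00e-07 for Pcdh7). They were lost without library 2 (edgeR, no member, 5 at an unadjusted p under 0.05; adjusted p = 0.528 for Pcdh7) and without library 3 (no member, 3 unadjusted; 0.968), where no gene of the whole table was called either, and DESeq2 on all libraries called 3 members, all higher. Over all genes these fits called 0.647% by DESeq2, 0.381% without the library block, 0% with the stricter gate, 2.84% without library 1, 0% without library 2 and 0% without library 3. No catenin (7 tested), junction linker (2), far relative (7) or signalling gene (12) passed by edgeR.

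Glutamatergic neurons differed from spiny neurons (D1-like and D2-like together) in 9 of 27 members tested, 5 higher and 4 lower. Of all 9266 genes, 18.3% were called, 9.86% higher and 8.42% lower, and the median log2 fold change was -0.098 over these members and -0.048 over all genes. The spiny sums overlap those of the D1-like and D2-like comparison, since they hold the same cells, and also serve for the interneurons below. The higher members were 3 protocadherins and the type II cadherins Cdh12 and Cdh10. Pcdh20 was at 0, 26.2 and 39.8 CPM against 0, 4.58 and 3.89 CPM in spiny neurons (log2 fold change 2.82 ± 0.42 (SE), adjusted p = 0.00311); library 1 held none in either, so the direction was seen in 2 of 3 libraries. Pcdh15 was at 17.2, 33.05 and 12.8 CPM against 2.01, 6.87 and 6.49 CPM (log2 fold change 1.95 ± 0.41 (SE), adjusted p = 0.0109). Cdh12 was at 17.2, 33.05 and 28.7 CPM against 12.1, 2.62 and 3.89 CPM (log2 fold change 2.95 ± 0.50 (SE), adjusted p = 0.00407), Pcdh7 at 163, 237 and 319 against 48.3, 107 and 104 CPM (log2 fold change 1.45 ± 0.19 (SE), adjusted p = 0.00115) and Cdh10 at 42.98, 66.1 and 87.7 against 38.2, 28.9 and 43.5 CPM (log2 fold change 0.98 ± 0.24 (SE), adjusted p = 0.0219). Values overlapped for Pcdh20 and Cdh10 and not for the other 3.

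The 4 members that were lower in glutamatergic neurons had their highest levels among neurons in spiny types or, for Cdh4, in interneurons. Cdh8 was at 34.4, 5.70 and 0 CPM in glutamatergic and 46.3, 38.6 and 60.3 CPM in spiny neurons (log2 fold change -2.96 ± 0.69 (SE), adjusted p = 0.0156), from 9 UMIs in the former. Cdh4 was at 17.2, 11.4 and 4.78 and 36.2, 41.4 and 59.7 CPM (log2 fold change -2.32 ± 0.39 (SE), adjusted p = 0.00308). Cdh7 was at 0, 15.95 and 14.3 and 50.3, 66.2 and 76.5 CPM (log2 fold change -2.31 ± 0.34 (SE), adjusted p = 0.00154). Pcdh17 was at 275, 71.8 and 71.7 and 517, 193 and 374 CPM (log2 fold change -1.61 ± 0.26 (SE), adjusted p = 0.00309), and of these 4 it alone overlapped, library 1 being high in both. Without library 1 all 9 kept their calls, and 15 members passed. Without library 2 Pcdh7 (adjusted p = 0.0230) and Cdh7 (0.0477) did, while Pcdh15, Pcdh20 and Cdh12 were too sparse to be tested. Without library 3 edgeR called no member (8 at an unadjusted p under 0.05), with 0.0551 for Pcdh15 as the lowest adjusted p of the 8 tested (Pcdh20 was too sparse), and DESeq2 on all libraries gave 3 higher and 4 lower. Calls over all genes came to 12.6% by DESeq2, 11.9% without the library block, 1.83% with the stricter gate, 27.1% without library 1, 6.16% without library 2 and 2.57% without library 3.

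Among the partner genes the test called 9 of 36 (25%), 8 higher and 1 lower in glutamatergic neurons, where 18.3% of all genes were called. Of these, 3 of 6 junction linkers and nectins tested were higher in glutamatergic neurons and none was lower. They were Pvrl1 or nectin-1 (59.5 ± 29.2 against 7.71 ± 1.87 CPM; log2 fold change 3.14 ± 0.28 (SE), adjusted p = 0.000143), Pvrl3 or nectin-3 (2.72) and Plekha7 (2.56). Of 8 far relatives 5 were higher, among them the calsyntenins Clstn2 (42.2 ± 18.4 against 10.7 ± 5.87 CPM; log2 fold change 1.84 ± 0.28 (SE), adjusted p = 0.00215) and Clstn1 (0.82) and the photoreceptor cadherin Cdhr1 (1.48, in 2 of 3 libraries). Of 8 catenins 1 was lower, Ctnna1 (23.04 ± 6.66 against 61.9 ± 14.4 CPM; log2 fold change -1.22 ± 0.25 (SE), adjusted p = 0.0103). None of the 14 signalling genes passed.

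The interneurons, cells rich in Sst and Npy with far less Pvalb, differed from spiny neurons in 9 of 20 members tested, 5 higher and 4 lower. Of all 7445 genes, 15.6% were called, 7.36% higher and 8.27% lower, and the median log2 fold change was -0.085 over these members and -0.11 over all genes. Pcdh18, a delta-2 protocadherin, was at 92.1, 76.5 and 91.3 CPM in interneurons and 2.01, 3.27 and 5.84 CPM in spiny neurons (log2 fold change 4.39 ± 0.48 (SE), adjusted p = 0.000177). Pcdh15 was at 30.7, 81.6 and 91.3 against 2.01, 6.87 and 6.49 CPM (log2 fold change 3.62 ± 0.43 (SE), adjusted p = 0.000226) and Pcdh8 at 61.4, 107 and 54.8 against 2.01, 9.49 and 10.4 CPM (log2 fold change 3.31 ± 0.44 (SE), adjusted p = 0.000555). Since gate thresholds were chosen after Pcdh8 levels had been seen, the p of Pcdh8 is no independent test. Cdh13 was at 154, 117 and 164 against 78.5, 44.3 and 68.8 CPM (log2 fold change 1.20 ± 0.30 (SE), adjusted p = 0.0211). These 4 genes did not overlap. Cdh20 was at 92.1, 30.6 and 0 against 0, 1.31 and 0 CPM (log2 fold change 4.86 ± 1.06 (SE), adjusted p = 0.0111), with none in library 3 of either, so 2 of 3 libraries showed the direction.

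Lower in interneurons were Pcdh17 (184, 91.8 and 36.5 against 517, 193 and 374 CPM; log2 fold change -1.69 ± 0.36 (SE), adjusted p = 0.0103), Pcdh10 (92.1, 128 and 73.1 against 167, 256 and 245 CPM; log2 fold change -1.19 ± 0.30 (SE), adjusted p = 0.0214), Cdh2 (30.7, 40.8 and 54.8 against 88.5, 112 and 128 CPM; log2 fold change -1.44 ± 0.36 (SE), adjusted p = 0.0190) and Cdh7 (0, 20.4 and 0 against 50.3, 66.2 and 76.5 CPM; log2 fold change -2.30 ± 0.63 (SE), adjusted p = 0.0267). None of these overlapped. The libraries held only 17, 43 and 12 interneurons, and leaving out any 1 library ended the calls: edgeR then called no member (13, 7 and 9 at an unadjusted p under 0.05 without library 1, 2 and 3), with adjusted p between 0.0663 and 0.257 for those of the 9 that could be tested, and DESeq2 on all libraries called 5 higher and 1 lower. Among all genes tested, the called share was 10.3% by DESeq2, 0% without library 1, 1.22% without library 2 and 0% without library 3. The partner genes gave 13 of 29 (44.8%), 4 higher and 9 lower, where 15.6% of all genes were called. Of these, 3 of 6 catenins tested were lower, Jup or plakoglobin (28.3 ± 29.5 against 87.9 ± 16.5 CPM; log2 fold change -2.59 ± 0.64 (SE), adjusted p = 0.0149), Ctnna1 (-1.97) and Ctnnb1 or beta-catenin (-1.02), and Pkp4 was higher (1.42). Of 4 junction linkers Pvrl2 (4.33) and Pvrl1 (2.54) were higher and Mllt4 or afadin lower (-1.36). Of 6 far relatives 1 was higher, Clstn2 (2.63), and 5 of 13 signalling genes were lower, led by Ptk2b (30.2 ± 27.8 against 489.8 ± 64.1 CPM; log2 fold change -3.75 ± 0.41 (SE), adjusted p = 0.000177), Wasf1 (-1.71) and Abi2 (-1.71).

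Among glia, astrocytes and oligodendrocytes differed in 8 of 12 members tested, 5 higher in astrocytes and 3 lower. Of all 9483 genes, 44.9% were called, 24.2% higher and 20.7% lower, and the median log2 fold change was 0.27 over these members and 0.0030 over all genes. Without the low-count filter, 9 of 63 members and 4497 of 16272 genes were called, so the counts describe the members that passed it. Higher in astrocytes were Cdh2 (205, 166 and 226 CPM against 50.04, 61.2 and 29.04 CPM in oligodendrocytes; log2 fold change 2.04 ± 0.26 (SE), adjusted p = 1.32e-06) and Pcdh10 (211, 143 and 145 against 43.8, 43.4 and 38.5 CPM; log2 fold change 1.87 ± 0.24 (SE), adjusted p = 9.85e-07). Pcdh7 (51.8, 78.3 and 100.2 against 8.34, 17.8 and 8.63 CPM; log2 fold change 2.63 ± 0.33 (SE), adjusted p = 6.95e-07), Pcdh1 (24.9, 17.8 and 23.01 against 8.34, 2.85 and 1.57 CPM; log2 fold change 2.56 ± 0.50 (SE), adjusted p = 0.000210) and the type II gene Cdh11 (24.9, 36.4 and 35.2 against 10.4, 17.1 and 10.99 CPM; log2 fold change 1.24 ± 0.34 (SE), adjusted p = 0.00499) were higher as well. No library of either class overlapped for these 5.

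Pcdh9 was the strongest oligodendrocyte member, at 457, 516 and 616 CPM there and 59.5, 93.03 and 118 CPM in astrocytes (log2 fold change -2.64 ± 0.22 (SE), adjusted p = 1.34e-09). Pcdh11x was at 25.02, 29.2 and 23.5 CPM in oligodendrocytes and 15.4, 10.9 and 12.2 CPM in astrocytes (log2 fold change -1.15 ± 0.36 (SE), adjusted p = 0.0129). Pcdh15 had 49 UMIs in oligodendrocytes and 2 in astrocytes, which is a ratio of levels of 19.8 with a counting interval of 5.19 to 168 (adjusted p = 0.000189). The 3 genes did not overlap. The oligodendrocyte markers summed to 1203 to 5260.4 CPM in astrocytes, highest in library 3, against 60960.2 to 73856 CPM in oligodendrocytes; the part of this in the Pcdh9 level of astrocytes was not tested. Without library 3, Cdh11 (adjusted p = 0.0624) and Pcdh11x (0.0735) missed the threshold, as did Pcdh11x without library 2 (0.183), and Pcdh15 was too sparse to be tested without either, so that 5 members passed without library 3 in place of 8. Over the whole table the called share was 33.8% without library 1, 44.9% without library 2 and 32.4% without library 3.

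Over the partner lists the test called 21 of 35 (60%), 12 higher and 9 lower in astrocytes, where 44.9% of all genes were called. Of 8 catenins tested, 2 were higher in astrocytes and 4 lower. Ctnnd2 or delta-catenin was at 194 ± 39.9 against 9.36 ± 3.15 CPM (log2 fold change 4.14 ± 0.29 (SE), adjusted p = 1.07e-10) and Ctnnb1 was higher (0.91), while Pkp4 (-1.85), Ctnna2 (-1.83) and Jup (-1.48) were lower. Of 8 junction linkers, 3 were higher (Plekha7, 4.55; vinculin, Vcl, 2.90; Pvrl2, 1.72) and 2 lower (Mllt4, -2.22; Pvrl1, -1.67). Of 5 far relatives 4 were higher and none lower, led by Dchs1 (3.30) and Celsr2 (1.62) of the planar polarity pathway and by Clstn1 (0.97). The 14 signalling genes split into 3 higher (Cyfip1, 1.88; Abi1, 1.31; Nckap1, 0.63) and 3 lower (the kinase Ptk2, -0.82; the sheddase Adam10, -0.79; Ppp1ca, -0.60).

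OPCs, the cells from which oligodendrocytes arise, differed from oligodendrocytes in 8 of 10 members tested, 7 higher and 1 lower. Of all 5804 genes, 28.4% were called, 12.5% higher and 15.9% lower, and the median log2 fold change was 1.76 over these members and -0.11 over all genes. Without the low-count filter, 8 of 58 members and 1798 of 15228 genes were called, so the counts describe the members that passed it. The oligodendrocytes are the same as in the astrocyte comparison. Cdh13 was at 76.01, 108 and 152 CPM in OPCs and 2.08, 4.98 and 4.71 CPM in oligodendrocytes (log2 fold change 4.18 ± 0.48 (SE), adjusted p = 2.87e-05). Pcdh15 was at 152, 284 and 186 against 2.08, 14.95 and 21.2 CPM (log2 fold change 3.24 ± 0.41 (SE), adjusted p = 7.27e-05), Pcdh7 at 76.01, 108 and 161 against 8.34, 17.8 and 8.63 CPM (log2 fold change 2.84 ± 0.47 (SE), adjusted p = 0.000648) and Pcdh11x at 228, 149 and 144 against 25.02, 29.2 and 23.5 CPM (log2 fold change 1.98 ± 0.37 (SE), adjusted p = 0.00133). Pcdh10 was at 380.03, 162 and 152 against 43.8, 43.4 and 38.5 CPM (log2 fold change 1.53 ± 0.34 (SE), adjusted p = 0.00459), Pcdh17 at 152, 149 and 271 against 70.9, 55.5 and 80.9 CPM (log2 fold change 0.97 ± 0.33 (SE), adjusted p = 0.0452), and Pcdhb9 at 76.01, 94.7 and 16.9 against 2.08, 1.42 and 3.92 CPM (log2 fold change 3.65 ± 0.88 (SE), adjusted p = 0.00721), on 10 and 8 UMIs. Pcdh9 was lower, at 76.01, 284 and 262 against 457, 516 and 616 CPM (log2 fold change -1.74 ± 0.35 (SE), adjusted p = 0.00237). All 8 were free of overlap, which describes these genes only, since the share over all genes is not given.

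The OPC sums were thin, with 16, 51 and 34 cells. They also held more of the neuron markers (608 to 1299 CPM, against 219.8 to 797 in oligodendrocytes), and the part of this in the higher members was not tested. Without library 1, Cdh13 (adjusted p = 0.0261), Pcdh15 (0.0354), Pcdh9 (0.0442) and Pcdh11x (0.0469) kept their calls, and without library 2 only Cdh13 (0.0407). Without library 3 edgeR called no member (6 at an unadjusted p under 0.05; 0.0573 for Cdh13), and DESeq2 on all libraries called 7. The called share of the whole table was 19.4% by DESeq2, 0% with the stricter gate, 6.44% with cells of at least 1000 UMIs, 9.16% without library 1, 0.795% without library 2 and 0% without library 3. Over the partner lists edgeR called 7 of 27 (25.9%), 2 higher and 5 lower in OPCs, where 28.4% of all genes were called. Of 8 catenins tested, Ctnnd2 was higher (130.2 ± 86.6 against 9.36 ± 3.15 CPM; log2 fold change 3.16 ± 0.49 (SE), adjusted p = 0.000410) and 4 were lower, among them Pkp4 (-3.52), Ctnnal1 (-3.41) and Jup (-3.17). Mllt4 was the only one of 4 junction linkers to pass, lower (-2.01), neither of 2 far relatives passed, and the kinase Fyn was the only one of 13 signalling genes, higher in OPCs (591 ± 611 against 61.8 ± 11.2 CPM; log2 fold change 1.97 ± 0.34 (SE), adjusted p = 0.000874).

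In the vessel wall, endothelial and mural cells carried different members. Only 5 members passed the filter, and 4 differed, 1 higher in endothelial cells and 3 lower. Of all 4118 genes, 31.9% were called, 16.9% higher and 15% lower, and the median log2 fold change was -1.70 over these members and 0.041 over all genes. Without the low-count filter, 4 of 53 members and 1352 of 14316 genes were called, so the counts describe the members that passed it. Cdh5 was at 379.8, 403 and 355 CPM in endothelial cells (332 UMIs) and had no UMI in mural cells of any library, so that it was at least 45.2-fold higher, taking 3 UMIs over the group as the limit of a count of 0 (adjusted p = 6.06e-06). Pcdh18 was the reverse, at 157, 176 and 156 CPM in mural cells (59 UMIs) and without a UMI in endothelial cells, at least 48.1-fold lower there (adjusted p = 1.35e-05). Cdh2, by which pericytes and endothelial cells are known to join, was at 48.1, 26.8 and 14.8 CPM in endothelial and 157, 149 and 149 CPM in mural cells (log2 fold change -2.48 ± 0.39 (SE), adjusted p = 0.000318). Pcdh19 was at 32.1, 36.6 and 33.3 and 62.7, 138 and 104 CPM (log2 fold change -1.70 ± 0.36 (SE), adjusted p = 0.00300). No gene of the 4 overlapped, again a description of these genes only.

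Pcdh1 was the member tested that did not pass, at 64.2, 63.5 and 44.4 CPM in endothelial and 31.3, 47.9 and 44.6 CPM in mural cells (log2 fold change 0.32 ± 0.41 (SE), adjusted p = 0.628). Without library 2 or 3 Pcdh19 missed the threshold (adjusted p = 0.0961 and 0.0753), while Cdh5, Pcdh18 and Cdh2 passed without any 1 library. With 1 library left out, the called share of all genes was 24.3% without library 1, 22.8% without library 2 and 13.6% without library 3. The mural markers summed to 70.8 to 185 CPM in endothelial cells and 20658 to 26632 CPM in mural cells. Of the partner genes the test called 10 of 18 (55.6%), 7 higher and 3 lower in endothelial cells, where 31.9% of all genes were called. Of the catenins, 3 of 5 were higher in endothelial cells, Pkp4 (117 ± 2.47 against 7.09 ± 12.3 CPM; log2 fold change 3.33 ± 0.61 (SE), adjusted p = 0.000650), Ctnnb1 (1.48) and Jup (1.33), none lower. Of 3 junction linkers Mllt4 (168 ± 35.3 against 15.8 ± 15.7 CPM; log2 fold change 3.68 ± 0.53 (SE), adjusted p = 9.60e-05) and Tjp1 (1.53) were higher and Vcl lower (40.6 ± 6.55 against 208 ± 48.03 CPM; log2 fold change -2.35 ± 0.32 (SE), adjusted p = 0.000101). The single far relative tested did not pass, and of 9 signalling genes Adam10 (1.74), which is known to cut cadherins at the membrane, and Abi1 (1.40) were higher and Ptk2 (-2.66) and Abi2 (-1.82) lower.

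The members' places in the genome were read from the GENCODE M21 annotation of GRCm38, the build that the submitters' notes name as mm10. All 65 had a position, 39 of them on chromosome 18, where the clustered families lie. Several others lie within 5 Mb of one another. On chromosome 1, Cdh20 (chr1:104768529-104995481), Cdh7 (chr1:109982431-110140157) and Cdh19 (chr1:110888326-110977584) follow each other with gaps of 4.99 and 0.748 Mb. Cdh7 lay in other classes than Cdh19 and Cdh20, which were both found in astrocytes and oligodendrocytes. Cdh7 was at 62.2 ± 16.6 and 65.6 ± 13.4 CPM in D1-like and D2-like cells and at 0.998 ± 0.867 CPM in oligodendrocytes. Cdh19 was at 0.452 ± 0.783 CPM in D1-like cells, 21.1 ± 16.3 CPM in astrocytes and 19.3 ± 2.48 CPM in oligodendrocytes. Its mean in OPCs, 33.8 ± 38.7 CPM, rested on 4 UMIs (1, 0 and 3 in libraries 1, 2 and 3). Cdh20 was at 16.3 ± 2.83 CPM in astrocytes, 22.9 ± 9.45 CPM in oligodendrocytes and 40.9 ± 46.9 CPM in interneurons, and held 4 and 4 UMIs in all D1-like and D2-like cells.

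**Figure D5:**
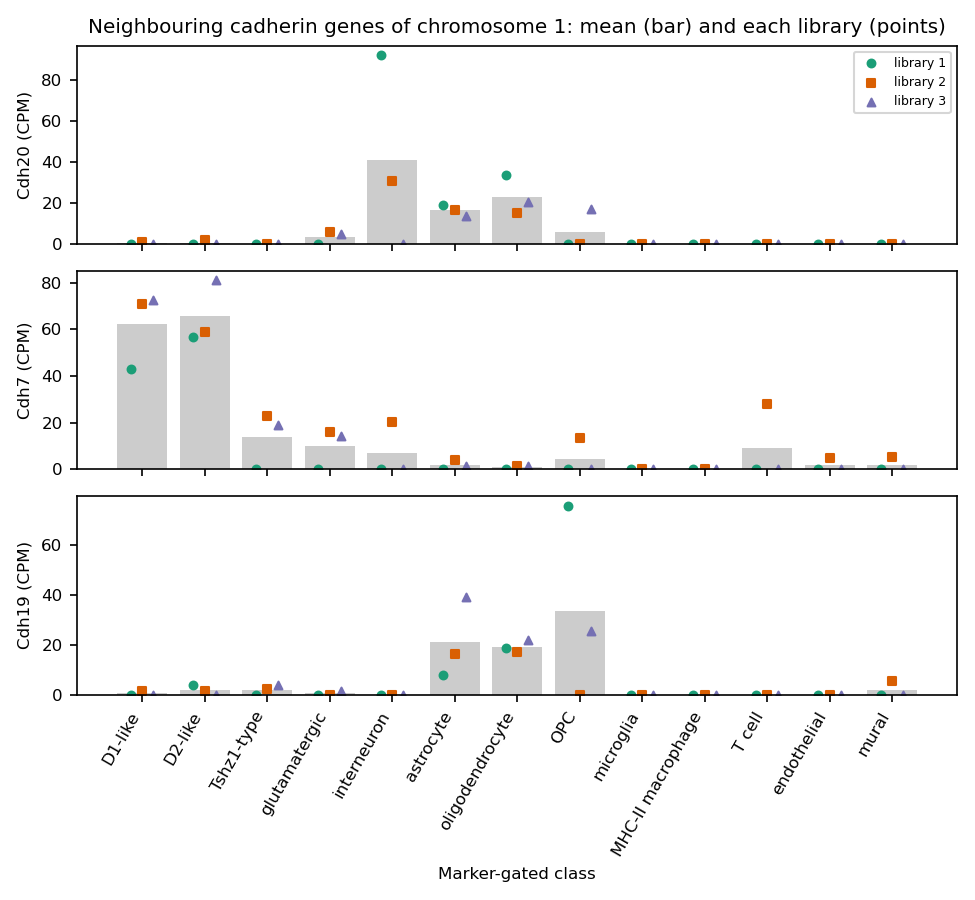
CPM of the neighbouring type II cadherins of chromosome 1 in 13 marker-gated classes (bar, mean of 3 libraries; points, single libraries; each panel has its own scale). Cdh7 is high in D1-like and D2-like cells, and Cdh19 and Cdh20 in astrocytes and oligodendrocytes. The OPC bar of Cdh19 rests on 4 UMIs, 1 in library 1 and 3 in library 3. The interneuron bar of Cdh20 rests on 9 UMIs, with none in library 3.

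On chromosome 14, Pcdh8 (chr14:79766775-79771312), Pcdh17 (chr14:84443563-84539002), Pcdh20 (chr14:88464743-88471396) and Pcdh9 (chr14:93013410-93890679) lie in a row with gaps of 4.67, 3.93 and 4.54 Mb. By their means the highest classes were Tshz1-type, D2-like, glutamatergic and oligodendrocyte in that order. Only for Pcdh9 did the libraries of that class lie clear of every other class with 3 libraries. On chromosome 3, Pcdh10 and Pcdh18 (chr3:49743296-49757325) lie 4.31 Mb apart. Pcdh10 was found in all neuron classes, in astrocytes and OPCs (232 ± 129 CPM) and, at a lower level, in oligodendrocytes (41.9 ± 2.98 CPM). Pcdh18, at 163 ± 11.03 CPM in mural cells and 86.7 ± 8.80 CPM in interneurons, was at 2.18 ± 2.05 CPM in D1-like cells. On chromosome 8, Cdh8, Cdh11 and Cdh5 (chr8:104101625-104144511) are neighbours with gaps of 3.22 and 1.32 Mb. Over 13 classes the profiles of Cdh8 and Cdh11 (log2 of the mean CPM plus 1) had a Pearson r of 0.73, and those of Cdh11 and Cdh5 of -0.16. Among the 23 members with at least 200 UMIs in the classes, the most alike were Pcdh10 and Pcdh17 (r = 0.96), Pcdh10 and Cdh10 (0.94), Pcdh9 and Cdh10 (0.93) and Pcdh19 and Pcdh1 (0.93). These r values describe 13 class means that share libraries and differ in depth.

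Promoters from 250 bases before to 50 after the start are shown for 4 members whose levels the comparisons turn on, the neighbours Cdh7 (spiny neurons) and Cdh20 (interneurons and glia), Pcdh8 (Tshz1-type cells and interneurons) and Pcdh18 (interneurons and mural cells). They are from RefSeq on GRCm38.p6, which has entries for 19 of the member symbols, and are written 5′ to 3′ along the gene. Capitals mark matches, on either strand, to the 4 motifs searched: the TATA box, spelled TATAAA; a core of sites bound by SOX factors, spelled ACAAAG; a core of sites bound by ETS factors, spelled GGAAGT; and the E-box, spelled CAGCTG.
Cdh7: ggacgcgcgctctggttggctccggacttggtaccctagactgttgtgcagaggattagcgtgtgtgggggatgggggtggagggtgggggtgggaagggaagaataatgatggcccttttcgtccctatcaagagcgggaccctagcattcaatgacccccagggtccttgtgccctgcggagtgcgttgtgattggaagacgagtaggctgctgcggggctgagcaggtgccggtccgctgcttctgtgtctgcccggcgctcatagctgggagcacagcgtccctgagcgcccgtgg
Cdh20: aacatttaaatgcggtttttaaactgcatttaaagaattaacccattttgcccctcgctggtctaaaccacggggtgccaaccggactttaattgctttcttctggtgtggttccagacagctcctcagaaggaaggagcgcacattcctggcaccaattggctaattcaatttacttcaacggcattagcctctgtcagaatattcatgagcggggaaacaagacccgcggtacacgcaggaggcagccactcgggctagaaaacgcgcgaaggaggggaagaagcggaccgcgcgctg
Pcdh8: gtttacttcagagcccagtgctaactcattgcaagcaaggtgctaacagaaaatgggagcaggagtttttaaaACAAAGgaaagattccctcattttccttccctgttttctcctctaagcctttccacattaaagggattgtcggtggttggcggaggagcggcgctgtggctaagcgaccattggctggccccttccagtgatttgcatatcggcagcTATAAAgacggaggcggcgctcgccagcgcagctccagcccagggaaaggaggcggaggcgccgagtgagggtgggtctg
Pcdh18: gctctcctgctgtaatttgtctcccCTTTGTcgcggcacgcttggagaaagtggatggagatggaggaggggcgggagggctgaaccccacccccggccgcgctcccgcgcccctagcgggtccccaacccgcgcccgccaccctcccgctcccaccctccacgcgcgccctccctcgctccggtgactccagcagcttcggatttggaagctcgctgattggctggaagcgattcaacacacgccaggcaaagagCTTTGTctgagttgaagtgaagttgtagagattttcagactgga
The windows lie at chr1:109982650-109982949 on the plus strand (Cdh7, the first of 3 entries), chr1:104768270-104768569 on the plus strand (Cdh20), chr14:79771263-79771562 on the minus strand (Pcdh8) and chr3:49757267-49757566 on the minus strand (Pcdh18). Their GC content was 62.7%, 50.7%, 54.3% and 63.0%, with 18, 18, 14 and 23 CpG pairs, where the median of all 32851 promoters in the table was 52.7% and 7 CpG pairs. The Pcdh8 window held the TATA box at -30 from the start and the SOX core at -177. The Pcdh18 window held the SOX core on the other strand at -225 and at 6. The other 2 windows held none of the 4 motifs. Of all promoters 13.6% held the TATA box, 18.7% the SOX core, 23.8% the ETS core and 16.3% the E-box. Of the 19 member symbols 2 held the TATA box (Pcdh8 and Pcdh15), 3 the SOX core (Cdh26, Pcdh8 and Pcdh18), 2 the ETS core (Cdh22 and Cdh26) and 3 the E-box (Cdh9, Cdh12 and Pcdh15). A match is a description of these letters only.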

How the data were processed

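Single cells of 3 samples were profiled with the 10x Genomics 3′ v2 kit, per the labels. The submitters' processing notes name Cell Ranger 3.0 and mm10. Per the file headers, 1 deposited matrix gives integer counts of UMIs for all samples; the deposited gene and barcode lists carry names only. The members, lists and tests were chosen with earlier results of these data known, and the gate thresholds after class sizes and some member levels, Pcdh8 among them, had been seen.

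Cells under 300 genes or over 20% mitochondrial UMIs were dropped. A marker counted as present with 1 UMI or more and at least 0.5 times its share in the library. A class needed 3 markers present and a summed share 2 times the runner-up; within neurons it needed 2 markers and 1.5 times. D1-like and D2-like cells needed 2 markers and 2 times the other list, and Tshz1-type cells 2 of 5 markers and no D2 call, taking precedence over D1. The Tshz1-type gate took neurons without a glutamatergic, interneuron or cholinergic call and did not require the spiny call. Of the kept cells 14.2% passed no gate, and further neurons (4.07%) and spiny neurons (9.82%) took no subtype. No doublet caller was run; the required lead over the runner-up leaves out cells with markers of 2 classes. Cholinergic, immature and ependymal cells were too few to use as classes of their own. The neuron sums held the cholinergic and immature neurons and the neurons without a subtype, and the non-neuronal sums the ependymal cells.

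For each class, UMIs were added up within a library (10 cells or more) and tested with edgeR 4.0.16 (quasi-likelihood, robust prior, TMM, filterByExpr, library as block, Benjamini-Hochberg over all genes) in R 4.3.3. Both sums of a pair come from the same library, which is where the pairing comes from. DESeq2 1.42.0, no filter, no block, the default prior, a stricter gate, cells of at least 1000 UMIs and each library left out were tried. The script was tested on simulated data. The named members are those past the threshold in the same direction in each library, at most 12 per direction, with exceptions named; per class the 3 highest members; and up to 3 pathway genes per direction. Summed counts per class ranged from 13157 UMIs (OPCs, library 1) to 3686955 (D1-like, library 2). Intervals cover counting error only.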

Additional observations from a re-analysis of the deposited data

How the results depend on the processing

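No named member changed direction under any alternative run. Of 504 recomputed log2 fold changes, 387 stayed on their side of the threshold and 117 no longer passed. Leaving out 1 library at a time gave 24 to 35 members passing for neurons against other cells (34 with all libraries), 1 to 4 for D1-like against D2-like (4), 0 to 4 for Tshz1-type against D1-like (3), 0 to 15 for glutamatergic (9) and 0 to 0 for interneurons against spiny neurons (9), 5 to 9 for astrocytes (8) and 0 to 4 for OPCs against oligodendrocytes (8), and 3 to 4 for endothelial against mural cells (4). With 2 libraries the fit has few residual degrees of freedom, and the part of this in the lost calls was not tested. The losses differed by the library left out. Of the 9 members named for glutamatergic against spiny neurons, 9 kept their calls without library 1, 2 without library 2 and 0 without library 3. Of the 9 named for interneurons, 0 did so in each case.

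Without the pairing of sums by library (no replicate block), 0 members passed for D1-like against D2-like (edgeR, 3 at an unadjusted p under 0.05; DESeq2 with the block, 1), 1 for Tshz1-type against D1-like and 5 for glutamatergic against spiny neurons. In the other 5 comparisons the count stayed within 1.5 times. Without the low-count filter, 37 of 65 members passed for neurons against other cells and 3 of 65 for D1-like against D2-like. It was 4 of 62 for Tshz1-type against D1-like, 10 of 65 for glutamatergic and 11 of 65 for interneurons against spiny neurons. The genes called were 9655 of 18826, 187 of 16812, 129 of 16351, 1715 of 17147 and 1421 of 16903 in that order. The stricter gate gave 1 member for D1-like against D2-like. By edgeR it gave 0 for Tshz1-type against D1-like (4 unadjusted), 0 for glutamatergic against spiny neurons (0 unadjusted, 5 tested) and 0 for OPCs against oligodendrocytes (7 unadjusted), each with 2 libraries left, where DESeq2 with the usual gate gave 3, 7 and 7; interneurons could not be run. Cells of at least 1000 UMIs gave 2 members for OPCs. Fewer cells and libraries enter these fits; beyond that the cause was not tested.

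Counts of genes called in the whole table moved by over 1.5 times in 7 comparisons. For D1-like against D2-like, 286 genes became 74 by DESeq2, 187 without the low-count filter, 29 without the library block, 96 with the stricter gate and 114 to 295 with 1 library left out. For Tshz1-type against D1-like, 56 became 129 without the filter, 24 without the block, 184 with the package-default prior, 0 with the stricter gate, 213 in cells of at least 1000 UMIs and 0 to 233 with 1 library left out. Glutamatergic against spiny neurons gave 1694, against 1028 without the block, 44 with the stricter gate and 222 to 2680 with 1 library left out. Interneurons against spiny neurons gave 1164, against 766 by DESeq2 and 0 to 71 with 1 library left out, and astrocytes against oligodendrocytes 4255, against 2776 without library 3. For OPCs 1648 became 0 with the stricter gate, 507 in cells of at least 1000 UMIs and 0 to 694 with 1 library left out, and for endothelial against mural cells 1315 became 853 by DESeq2, 844 without the block and 487 to 1067 with 1 library left out.

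Of the recomputed class levels, 180 moved by less than 1 SD and 12 by more; the levels with 1 library left out were an alternative chosen after seeing the data. Thinning to 2000 in place of 1000 UMIs raised the members per cell, to 2.64 in D1-like cells and 1.31 in oligodendrocytes, for instance. In T cells, fibroblasts and library 1 OPCs, depth limits what a count of 0 can show: 3 UMIs correspond to 228 CPM in the latter.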
